A study of Mus musculus with 4 samples.

Results

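Interferon-stimulated genes are switched on in cells whose interferon receptors have been engaged, and 41 of them were followed here across the cell classes of the mouse cortex. They come from a list of symbols drawn up with earlier results of these data known, and no measured value was used to pick them out of the files. Of the 41 genes, 39 had a row among the 32285 measured genes, and Mx1 and Mx2 were not analysed here. The nuclei came from the cortex of C57BL/6 mice aged 5 months: 2 wildtype animals, and 2 Setdb1-CK-cKO animals that carry a conditional knockout of Setdb1. Each animal gave 1 single-nucleus library, in which transcripts were counted at their 3′ ends. The labels neither explain the letters CK nor name the Cre driver, so the cells in which Setdb1 was deleted are not known from them, and they name no treatment.

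Setdb1 encodes a histone methyltransferase that represses genes and repeats. Type I interferons bind a receptor made of Ifnar1 and Ifnar2, whose Janus kinases activate transcription factors that include Stat2 and Irf9. These bind the interferon-stimulated response element in front of their targets, which include sensors of foreign RNA and DNA, antiviral effectors and inhibitors that close the loop, such as Usp18. In the brain, microglia, astrocytes and endothelial cells are known responders to type I interferon.

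The promoters of some members are printed here because many promoters of this family share the core of that response element. The core was searched as GAAA, any 2 bases and GAAA again, on either strand, in windows from 250 bases before to 50 bases after each RefSeq gene start (GRCm38.p6), with overlapping matches allowed. It was found in 17 of 36 member promoters (47.2%, 16 of the 30 members with a promoter in the table) and in 1131 of all 32851 promoters (3.44%). The core of the gamma-activated site, TTCNNNGAA, was found in 4 of the 36 (11.1%) and in 2726 of the 32851 (8.30%). Oas2, Usp18, Ifi27, Ifi27l2a, Dhx58, Parp9, Parp14, Rtp4 and Zbp1 have no promoter in the table. Of the promoters printed next, all with a core, none belongs to a member that passed the test in a class. Gbp3 has another promoter in the table, not printed, that holds no match. Capitals mark the response element core in the 250 bases before the start of Ddx60, a helicase that acts with RNA sensors, Gbp3, a guanylate-binding GTPase, and Isg15, a ubiquitin-like modifier:
Ddx60, chr8:61927837-61928086, plus strand: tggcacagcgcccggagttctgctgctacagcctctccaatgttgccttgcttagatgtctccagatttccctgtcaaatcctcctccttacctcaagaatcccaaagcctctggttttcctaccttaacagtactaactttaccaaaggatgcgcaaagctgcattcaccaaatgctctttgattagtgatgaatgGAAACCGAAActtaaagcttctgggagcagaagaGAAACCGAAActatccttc
Gbp3, chr3:142559794-142560043, plus strand: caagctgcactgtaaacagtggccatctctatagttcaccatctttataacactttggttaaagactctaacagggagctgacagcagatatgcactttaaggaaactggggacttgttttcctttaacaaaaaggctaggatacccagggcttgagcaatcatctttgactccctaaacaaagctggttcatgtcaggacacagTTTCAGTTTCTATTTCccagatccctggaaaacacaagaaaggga
Isg15, chr4:156200819-156201068, minus strand: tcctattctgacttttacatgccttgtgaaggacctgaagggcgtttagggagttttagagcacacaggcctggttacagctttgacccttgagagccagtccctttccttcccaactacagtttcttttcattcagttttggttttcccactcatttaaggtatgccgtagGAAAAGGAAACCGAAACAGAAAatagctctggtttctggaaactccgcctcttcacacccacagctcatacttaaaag

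The same stretch of Xaf1, Oasl2 and Sp100, whose change passed the test in neurons, astrocytes or microglia, holds no match on either strand, which says only that these letters are not in this window. Xaf1 is a partner of the apoptosis inhibitor XIAP, Oasl2 belongs to the oligoadenylate synthetase family, and Sp100 is a component of nuclear bodies:
Xaf1, chr11:72301379-72301628, plus strand: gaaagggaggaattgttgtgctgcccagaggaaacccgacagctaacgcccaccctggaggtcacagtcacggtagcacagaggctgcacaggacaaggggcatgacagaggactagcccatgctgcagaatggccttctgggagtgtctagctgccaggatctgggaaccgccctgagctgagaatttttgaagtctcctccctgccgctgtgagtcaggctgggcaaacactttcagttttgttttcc
Oasl2, chr5:114896684-114896933, plus strand: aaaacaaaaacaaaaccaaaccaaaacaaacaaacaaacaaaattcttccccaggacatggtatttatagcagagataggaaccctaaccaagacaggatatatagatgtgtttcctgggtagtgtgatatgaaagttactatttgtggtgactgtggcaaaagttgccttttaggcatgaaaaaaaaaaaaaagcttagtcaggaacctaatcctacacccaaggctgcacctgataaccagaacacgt
Sp100, chr1:85649738-85649987, plus strand: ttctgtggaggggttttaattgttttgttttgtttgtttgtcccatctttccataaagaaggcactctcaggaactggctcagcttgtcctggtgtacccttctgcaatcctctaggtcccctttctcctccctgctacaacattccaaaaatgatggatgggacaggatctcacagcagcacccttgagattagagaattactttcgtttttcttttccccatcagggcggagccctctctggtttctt

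The labels list the 2 knockout animals as female (replicate 1) and male (replicate 2), but their RNA showed the opposite in excitatory neurons. Xist, expressed from the inactive X chromosome, stood at 1.71, 1031, 1.01 and 1430 CPM and Y-linked Uty at 87.5, 0.140, 76.2 and 0.0396 CPM in wildtype replicates 1 and 2 and knockout replicates 1 and 2, the order used for every set of 4 values below. By this RNA, replicate 1 of each genotype was male and replicate 2 female, so each genotype held 1 of each. CPM is the number of UMIs (counted transcript molecules) of a gene per 1000000 UMIs of that class and library, scaled with TMM factors, and is not divided by gene length. Setdb1 itself did not differ in excitatory neurons (72.8, 67.4, 70.9 and 67.1 CPM), and 3′ counts that lie outside a deleted part check nothing about the deletion. After filters 13882, 13712, 11176 and 13268 nuclei were kept, 46955 of them in 11 classes named from marker genes, and 10 classes had at least 30 nuclei in every library and were tested. Any 2 libraries shared 48 to 64 cell barcodes. Since each animal is 1 library, p-values measure the spread between 2 animals per genotype. By this RNA those 2 also differed in sex, so that spread holds any difference between the sexes as well.

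Summed over the 39 genes, the level was higher in both knockout libraries than in both wildtype libraries in 9 of the 11 classes. Excitatory neurons had 122, 124, 139 and 174 CPM, and inhibitory neurons 113, 85.9, 121 and 149 CPM. Astrocytes had 229, 220, 319 and 445 CPM, and microglia, the resident macrophages of the brain, 456, 402, 817 and 970 CPM. The ratio of the knockout to the wildtype mean was 1.27 and 1.36 in the neuron classes, 1.70 in astrocytes and 2.08 in microglia. Endothelial nuclei, only 30 to 43 per library, had 1246, 1119, 2731 and 2547 CPM, a ratio of 2.23. Knockout replicate 2 was above knockout replicate 1 in 7 of the 9 classes. In border macrophages (1464, 956, 1017 and 948 CPM from 20 to 47 nuclei) and committed oligodendrocyte precursors (354, 187, 274 and 535 CPM) the genotypes overlapped. No test was made of this sum, because its members were listed with results of these data known.

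**Figure D1:**
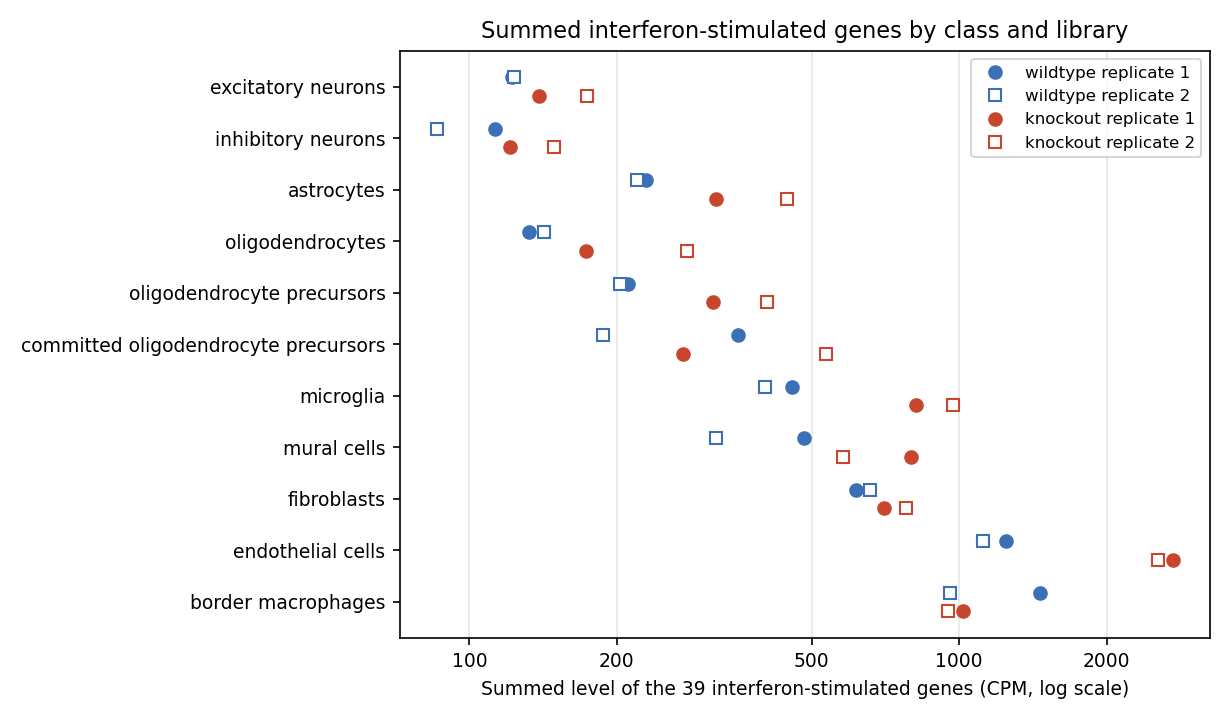
Summed level of the 39 interferon-stimulated genes (x axis, CPM on a log scale) in each of 11 cell classes (y axis), with 1 point per library: blue for wildtype, red for knockout, circles for replicate 1 and squares for replicate 2. The red points lie to the right of the blue points in 9 classes, among them microglia (817 and 970 against 456 and 402 CPM), and overlap them in border macrophages and committed oligodendrocyte precursors.

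Gene by gene, 4 members passed the test in a pooled class. Xaf1 rose in excitatory neurons, inhibitory neurons and oligodendrocytes, Ifi27l2a in excitatory neurons, Oasl2 in astrocytes and Sp100 in microglia, while no member fell in any class. Most members were too scarce to be tested outside excitatory neurons. The filter on low counts left 31 members in excitatory neurons, 12 in inhibitory neurons, 12 in astrocytes, 13 in microglia, 6 in oligodendrocytes, 7 in oligodendrocyte precursors and 3 in fibroblasts, and none in the other 3 classes tested. Fewer than 10 UMIs over all 4 libraries were counted for 4 members in excitatory neurons (Gbp2, Gbp3, Oas1a and the nucleic acid sensor Zbp1), 16 in inhibitory neurons, 12 in astrocytes, 14 in microglia and 23 in oligodendrocytes. Ifi44, Oasl1, Sp100 and Sp110 were also too scarce to test in excitatory neurons.

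**Figure D2:**
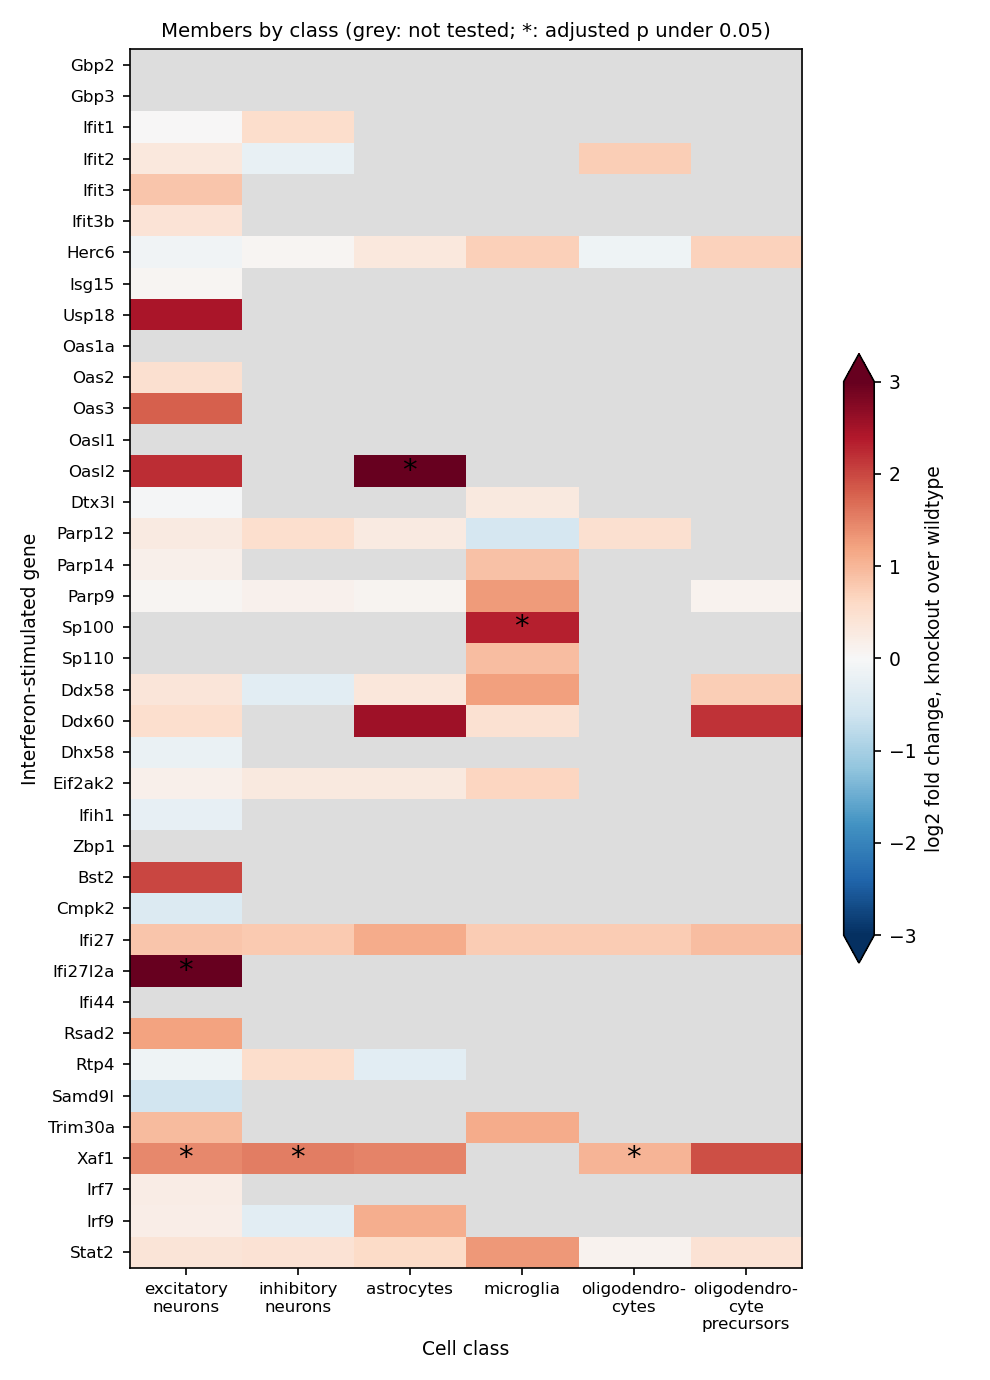
Log2 fold change, knockout over wildtype (colour scale from -3 to 3, red for higher in knockout), of each of the 39 members (y axis, ordered by role) in 6 cell classes (x axis), with grey for members that the filter on low counts left out and an asterisk for an adjusted p under the threshold. Xaf1 carries 3 of the 6 asterisks, and Oasl2 in astrocytes (5.76) and Ifi27l2a in excitatory neurons (4.44) lie beyond the end of the scale.

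In excitatory neurons, the class with the most UMIs, Xaf1 and Ifi27l2a rose. The transcripts of Xaf1 were counted 150, 154, 273 and 454 times (5.12, 5.41, 10.6 and 18 CPM), with no overlap of the genotypes. Its log2 fold change was 1.44 ± 0.231 (SE, adjusted p = 0.0105). Ifi27l2a, which encodes a small membrane protein of the same family as Ifi27, was almost absent from wildtype neurons, with 0, 2, 14 and 29 UMIs, and the genotypes did not overlap. The ratio of the summed levels was 24.4, with an exact 95% counting interval from 6.35 to 208, and the adjusted p was 0.0195. Ifi27l2a met the low-count filter, and so entered the test, only through the knockout libraries, where it was high. In total, 2 of the 31 members tested rose (3.13% of all 19131 genes tested rose in this class) and none fell (1.37% of all genes). At an unadjusted p under 0.05, 9 members were higher and none lower. Some of the 9, among them Ifi27l2a, entered the test only through the knockout libraries. The share of all genes at that unadjusted threshold was not counted, so no excess is read from this. Xaf1 passed without any 1 library, with log2 fold changes from 1.01 (without knockout replicate 2) to 1.77, and Ifi27l2a likewise, with fitted changes from 3.50 without wildtype replicate 1 to 7.50 without wildtype replicate 2. Leaving out a library could change how many members passed, and it also changed how many of all genes passed in this class.

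Members with the next smallest p in excitatory neurons did not pass. They were higher in both knockout libraries, as were 26.1% of all genes with at least 20 UMIs, and picking by small p favours this order. Usp18, the protease that removes Isg15 from proteins and restrains the interferon receptor, had 4, 6, 13 and 36 UMIs (log2 fold change 2.44 ± 0.612, adjusted p = 0.0597). Ifi27 had 10.2, 9.72, 12.9 and 22.4 CPM (0.83 ± 0.225, adjusted p = 0.0778). Both genes were highest in knockout replicate 2, and knockout replicate 1 lay closer to the wildtype libraries than to that library. Bst2, the membrane protein tetherin that holds back budding virus, had 6, 12, 17 and 47 UMIs (adjusted p = 0.0876). Oasl2 had 7, 8, 13 and 49 UMIs (adjusted p = 0.0939). Usp18 and Oasl2 met the low-count filter in this class only through the knockout libraries, where they were high. Stat2, the partner of Irf9 and the member with the highest wildtype level in this class, had 32.1, 28.7, 37.6 and 42.0 CPM (0.39 ± 0.112, adjusted p = 0.0918).

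The higher sum in excitatory neurons was carried mostly by 3 members. Stat2 made up 28.1%, Xaf1 27% and Ifi27 23.1% of the difference of 33.4 CPM between the genotype means, 78.2% together. Herc6, the ligase that attaches Isg15 in the mouse and the member with the second highest wildtype level here, went the other way (28.2, 29, 27.5 and 25.2 CPM), as did Cmpk2, a mitochondrial nucleotide kinase (2.46, 2.95, 2.06 and 1.98 CPM), and Samd9l, an antiviral and growth-restraining protein (1.19, 1.69, 1.13 and 0.791 CPM). In each of these the 2 knockout libraries were the lowest, without passing the test (adjusted p = 0.568, 0.302 and 0.33). Isg15 and Ifit1, classical members of the response, overlapped between the genotypes: Isg15 had 2.32, 3.55, 2.25 and 3.88 CPM (log2 fold change 0.06) and Ifit1, which binds RNA lacking host cap marks, 2.15, 2.07, 1.55 and 2.73 CPM (0.02). The mean was higher in knockout for 30 of the 39 members and lower for 9. Of the 34 with at least 20 UMIs, 26 had a positive log2 fold change, against 50.1% of all such genes.

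**Figure D3:**
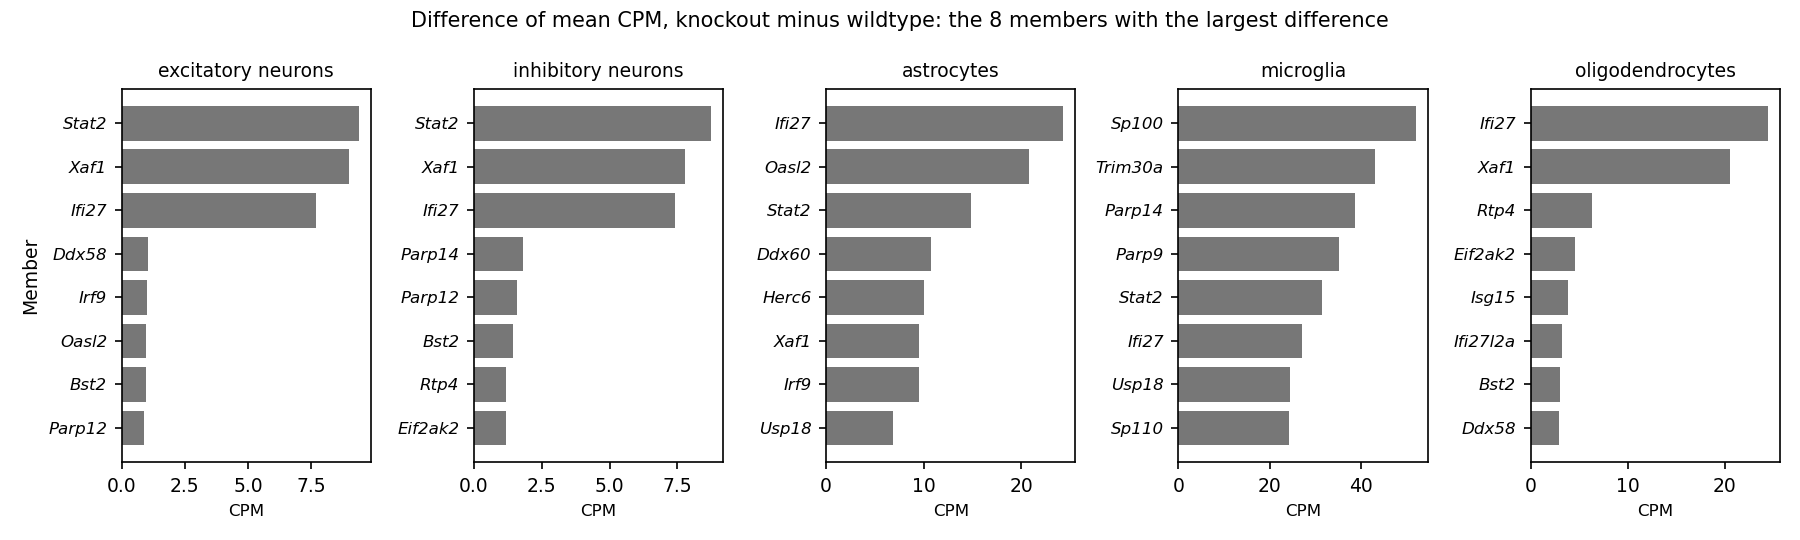
Difference of mean CPM, knockout minus wildtype (x axis, CPM, with its own scale in each panel), for the 8 members with the largest difference (y axis) in 5 cell classes. Stat2, Xaf1 and Ifi27 stand far above the rest in both neuron classes (78.2% and 66.9% of the summed difference), while in microglia the first 3 members, led by Sp100, hold 28.8%.

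In inhibitory neurons, Xaf1 rose and the same 3 members led the summed difference, at a lower depth. Xaf1 had 4.70, 3.61, 9.15 and 14.7 CPM, again with no overlap (1.53 ± 0.322, adjusted p = 0.0421), and was the only one of 12 members tested to rise (0.755% of all genes tested rose, 0.27% fell). The call was lost without wildtype replicate 2 (adjusted p = 0.0586) and without knockout replicate 2 (adjusted p = 0.181). Ifi27 had 11.6, 9.14, 14.1 and 21.4 CPM (0.78 ± 0.249, adjusted p = 0.187) and Stat2 29.9, 19.2, 30.8 and 35.9 CPM (0.44 ± 0.199, adjusted p = 0.367). Parp12, an ADP-ribosyltransferase, had 4.20, 3.37, 6.37 and 4.39 CPM (0.50 ± 0.362, adjusted p = 0.595). Stat2, Xaf1 and Ifi27 made up 24.5%, 21.8% and 20.7% of a summed difference of 35.7 CPM. Bst2, too scarce to test, was counted 0, 0, 3 and 8 times, at least 4.02-fold higher in knockout if 3 wildtype UMIs are taken as the floor. Oas1a, Oas3, Ifi44 and Zbp1 had no UMI in this class. Endothelial markers added up to 35.6, 34.6, 48.2 and 47.5 CPM here (1 of 2 tested rose), ribosomal protein transcripts to 4219, 4993, 5737 and 6495 CPM (6 of 81 rose) and astrocyte markers to 481, 541, 358 and 405 CPM (2 of 7 fell), and their part in the members' values was not tested.

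Within neurons, Xaf1 was higher across layers and subclasses. It was tested in 12 of the 16 neuron subclasses and numbered clusters, and the log2 fold change was positive in each, from 0.94 to 2.54 with a median of 1.43. Where counts were low, Xaf1 could enter the test through the knockout libraries alone, so the positive sign in each is partly set by the filter. The 2 knockout libraries were the highest in 11 of the 12, apart from L6 IT neurons (4.77, 9.13, 8.14 and 18.5 CPM). Over all 16, tested or not, they were the highest in 15. The share of all genes with this order was not counted in the subclasses. It rose in 5 of them: in corticothalamic L6 CT neurons (1.44 ± 0.275, adjusted p = 0.00246), L5 ET neurons, which project out of the cortex (2.14 ± 0.430, adjusted p = 0.00995), L6b neurons (2.54 ± 0.592, adjusted p = 0.0315), L2/3 IT neurons (1.37 ± 0.265, adjusted p = 0.029) and cluster 5, which held L4/5 IT and L5 IT markers (1.61 ± 0.347, adjusted p = 0.0163). Among all genes tested, the share that rose was 2.91% in L6 CT, 1.13% in L5 ET, 0.619% in L6b, 1.56% in L2/3 IT and 2.47% in cluster 5. Ifi27 was tested in 13, from 0.38 to 1.36, and rose in 3: L6 CT (1.0, adjusted p = 0.0184), L6 IT (1.36, adjusted p = 0.0374, where 1.53% of all genes rose) and cluster 5 (1.0, adjusted p = 0.0329). These 8 were the only member calls over the subclasses, all of them higher in knockout. In the others, the share of all genes that rose was 1.25% in L4/5 IT, 0.816% in L5/6 NP, 0.269% in Pvalb, 0.554% in Sst, 0.553% in claustrum or L6 Car3 neurons, and 0.661%, 0.806%, 0.0%, 0.708% and 0.441% in clusters 15, 17, 18, 3 and 6. The share that fell was 0.822% in L2/3 IT, 0.523% in L4/5 IT, 0.43% in L5 ET, 0.414% in L5/6 NP, 1.33% in L6 CT, 1.57% in L6 IT, 0.387% in L6b, 0.052% in Pvalb, 0.413% in Sst, 0.737% in claustrum or L6 Car3 neurons, and 0.316%, 0.444%, 0.0%, 0.139%, 1.57% and 0.0969% in clusters 15, 17, 18, 3, 5 and 6. The number of member calls over the subclasses also depended on which library was left out. Subclasses are parts of the pooled classes and are not independent of them.

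**Figure D4:**
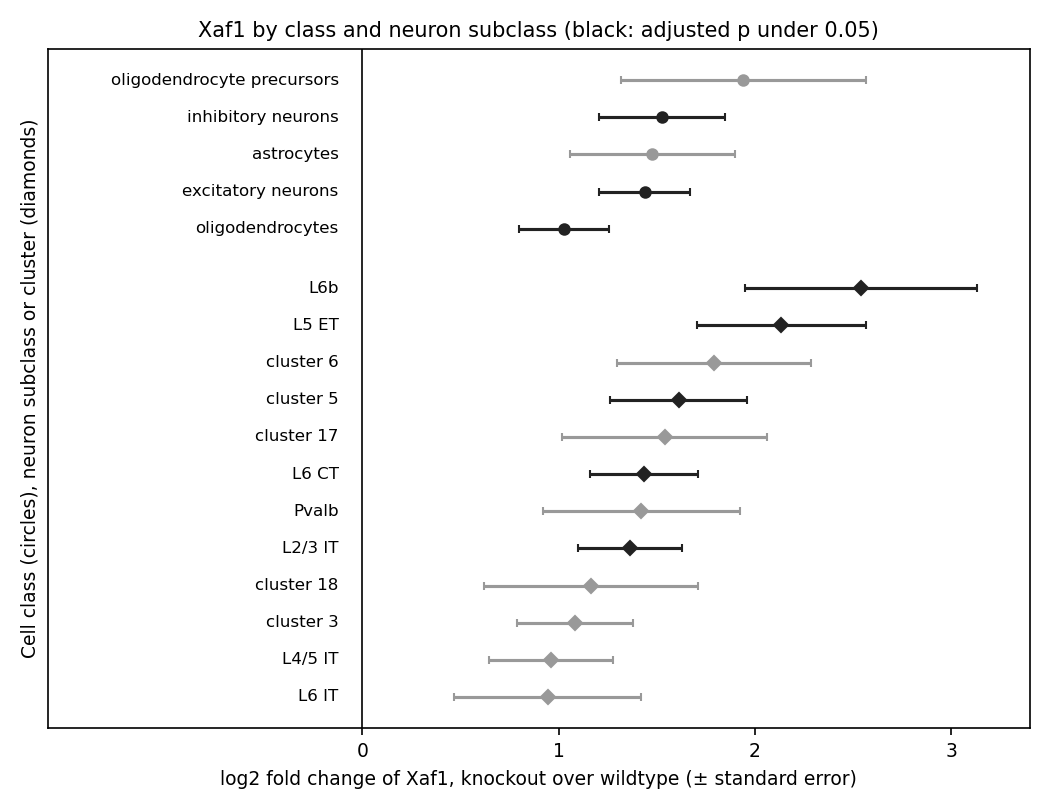
Log2 fold change of Xaf1, knockout over wildtype (x axis, bars ± 1 standard error of the edgeR fit), in the 5 cell classes (circles) and 12 neuron subclasses or clusters (diamonds) where it was tested (y axis), black where the adjusted p was under the threshold. Every point lies to the right of 0, from 0.94 in L6 IT to 2.54 in L6b neurons.

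Other RNA moved with genotype in the sums of excitatory neurons, and its part in the members' results was not tested. The 8 endothelial markers added up to 47.1, 43.8, 82.1 and 84.1 CPM (1 of 6 tested rose), the 7 border macrophage markers to 4.71, 5.16, 8.11 and 9.81 CPM (1 of 2 rose) and the 10 microglia markers to 132, 149, 161 and 186 CPM (none of 10 rose). Transcripts of ribosomal proteins added up to 3663, 4257, 5068 and 5830 CPM, and 36 of the 82 tested rose. Among 11 genes tested within 200 kb of Xaf1 in this class, 1 rose, Txndc17. Xaf1 lies at chr11:72301629-72313733 on the plus strand (GENCODE vM21, GRCm38), and no measured gene overlaps it there. Ifi27l2a (chr12:103442167-103443680, minus strand) lies beside Ifi27 (chr12:103434211-103440239, plus strand), and none of 6 neighbours tested within 200 kb rose or fell.

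In astrocytes, the glia that line synapses and vessels, Oasl2 rose. It was nearly absent from wildtype astrocytes and clear in knockout: 0, 1, 9 and 41 UMIs, or 0, 0.652, 8.50 and 33.6 CPM. The ratio of the summed levels was 70.6, with a counting interval from 12.1 to 2843, and the fitted log2 fold change 5.76 ± 1.01 (adjusted p = 0.0422). Oasl2 met the low-count filter, and so entered the test, only through the knockout libraries, where it was high. No other of the 12 members tested rose (0.271% of all 12183 genes rose, 0.0246% fell). Most of its UMIs came from knockout replicate 2, and without that library it did not enter the test and no member passed. Without knockout replicate 1, Ddx60 and Ifi27 passed beside Oasl2, and more of all genes passed than with every library kept. Fitted changes of Oasl2 were 4.85 without wildtype replicate 1 and 7.84 without wildtype replicate 2. Oasl2 lies at chr5:114896936-114912234 (plus strand) beside its paralogue Oasl1, which had 1 UMI in astrocytes.

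After Oasl2, the members with the smallest p in astrocytes did not pass. Ddx60 had 2.38, 1.96, 8.50 and 17.2 CPM (4, 3, 9 and 21 UMIs, log2 fold change 2.54 ± 0.572, adjusted p = 0.135). Xaf1 had 4.17, 6.52, 14.2 and 15.6 CPM (1.48 ± 0.419, adjusted p = 0.285). In both the 2 knockout libraries were the highest, an order that 20.3% of all genes with at least 20 UMIs showed in astrocytes. Ddx60 and Xaf1 met the low-count filter there only through the knockout libraries, where they were high. Ifi27 had 23.8, 18.3, 28.3 and 62.4 CPM (1.12 ± 0.341, adjusted p = 0.34), with knockout replicate 1 near the wildtype libraries. Irf9, which gives Stat2 its DNA contact, had 10.1, 6.52, 15.1 and 20.5 CPM (1.09 ± 0.378, adjusted p = 0.415). Members too scarce to test included Usp18 with 0, 1, 4 and 13 UMIs (ratio 24, counting interval 3.76 to 1003) and Gbp3 with 0, 0, 2 and 12 UMIs, at least 6.59-fold higher. Ifit3 (3, 3, 3 and 14 UMIs), Isg15 (1, 3, 1 and 11) and Trim30a, a restraint on inflammatory signalling (2, 2, 3 and 12), were high in knockout replicate 2 alone. Ifi27 (15.4%), Oasl2 (13.2%), Stat2 (9.39%) and Ddx60 (6.79%) led the summed difference of 158 CPM, whose first 6 members held 57.2%. The mean was higher in knockout for 31 members and lower for 6. Of the 17 with at least 20 UMIs, 16 had a positive log2 fold change, against 45.5% of all such genes. Rtp4, a chaperone of membrane receptors, had a lower mean in knockout, with overlap (30.9, 23.5, 27.4 and 17.2 CPM, log2 fold change -0.31).

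Astrocyte nuclei fell into 2 clusters when the members were left out of the clustering, and both held Oasl2 in knockout. The larger had 1029, 987, 469 and 483 nuclei with 0, 1, 7 and 15 UMIs of Oasl2, and the smaller 20, 35, 199 and 364 nuclei with 0, 0, 2 and 26. The smaller held 3, 3, 794 and 789 UMIs of Def8, so a gene that differs between the genotypes helped to define it and its size is not read as a change in cells. Of knockout astrocyte nuclei with a UMI of Oasl2 (8 and 30 nuclei), 75.0% and 73.3% also had a UMI of another member, against 35.5% and 37.0% of nuclei without. Median depth was 1645.5 and 1341 UMIs in the former and 1493.5 and 1210 UMIs in the latter. In knockout excitatory neurons the shares were 30.8% and 48.8% with Oasl2 (13 and 43 nuclei), against 42.7% and 42.3% without. In knockout microglia they were 100% and 80% (4 and 20 nuclei), against 45.5% and 43.1%. In wildtype microglia they were 100% and 100% (3 and 1 nuclei), against 32.5% and 25.6%. For Usp18 the shares in knockout excitatory neurons were 76.9% and 50% (13 and 34 nuclei), against 42.7% and 42.4%. In knockout microglia those of Usp18 were 85.7% and 56.25% (7 and 16 nuclei), against 45.2% and 43.4%. In astrocytes the 10 microglia markers added up to 185, 208, 198 and 247 CPM and the 6 T or NK cell markers to 14.9, 19.6, 13.2 and 18.9 CPM, of which Cd3e, Cd3d and Nkg7 were at 0. Ribosomal protein transcripts were at 7624, 8816, 10801 and 11600 CPM (none of 81 tested rose), and their part in the members' values was not tested.

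In microglia, Sp100 rose, and the higher sum was spread over many members. Sp100 was counted 5, 7, 28 and 35 times (10.6, 14.8, 60.0 and 69.6 CPM), and the genotypes were far apart with the knockout replicates close together. Its log2 fold change was 2.33 ± 0.382 (adjusted p = 0.0188). It was the only one of 13 members tested that rose (0.0777% of all 9013 genes rose, 0.0333% fell). Sp100 met the low-count filter, and so entered the test, only through the knockout libraries, where it was high. The adjusted p was 0.662 without knockout replicate 1 and 0.745 without knockout replicate 2, at changes of 2.41 and 2.21. Sp100 lies at chr1:85649988-85709998 (plus strand), where it overlaps the predicted gene Gm17017 on the other strand and neighbours Sp110. Whether strand was used in the counting is not given in the sources used here, so reads of the pair may not have been told apart.

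Members next in line in microglia did not pass. In Trim30a, Parp9, Stat2, Parp14, Sp110 and Ddx58 the 2 knockout libraries were the highest. Picking members by small p favours this order, which 21.3% of all genes with at least 20 UMIs showed in microglia. Trim30a had 42.4, 31.8, 72.9 and 87.4 CPM (1.11 ± 0.291, adjusted p = 0.164). Parp9, an ADP-ribosyltransferase that works with the ligase Dtx3l, had 23.3, 25.4, 51.4 and 67.6 CPM (1.29 ± 0.339, adjusted p = 0.167), and Stat2 17, 25.4, 55.7 and 49.7 CPM (1.30 ± 0.361, adjusted p = 0.188). Parp14, which shares a locus with Parp9 and Dtx3l and the member with the highest wildtype level in microglia, had 57.2, 36.0, 77.2 and 93.4 CPM (0.87 ± 0.284, adjusted p = 0.246). Sp110, the nuclear body neighbour of Sp100, had 29.7, 23.3, 57.9 and 43.7 CPM (0.93, adjusted p = 0.315) and Ddx58, the RNA sensor also called RIG-I, 12.7, 10.6, 34.3 and 21.9 CPM (1.24, adjusted p = 0.343). At an unadjusted p under 0.05, 7 of the 13 members were higher and none lower. Sp100, 1 of the 7, entered the test only through the knockout libraries. How many of all genes reached that threshold was not counted, so no excess is read from this. Parp12 was lowest in the 2 knockout libraries (33.9, 27.5, 23.6 and 19.9 CPM, -0.50 ± 0.398), and Ifi27 overlapped between the genotypes (25.4, 52.9, 47.2 and 85.4 CPM).

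Other members were too scarce in microglia for the test. Usp18 had 0, 0, 7 and 17 UMIs, at least 7.79-fold higher in knockout. Isg15 had 0, 0, 1 and 6 UMIs, at least 2.27-fold higher. Usp18 and Isg15 were present in both knockout libraries and absent from both wildtype libraries. Oas1a, an oligoadenylate synthetase, had 0, 1, 4 and 5 UMIs. Knockout replicate 2 held 22 UMIs of Oasl2 (3, 1 and 4 in the other libraries), 8 of Ifit3 (1, 0 and 2), 8 of Oas2 (1, 1 and 0) and 6 of Ifi27l2a (0 in each). Xaf1 had 6, 5, 9 and 21 UMIs. The summed difference of 464 CPM was spread over many members: Sp100 made up 11.2%, Trim30a 9.28%, Parp14 8.33%, Parp9 7.57%, Stat2 6.79% and Ifi27 5.84%, 49.0% together. The mean was higher in knockout for 34 members and lower for 3. Of the 18 with at least 20 UMIs, 17 had a positive log2 fold change, against 48.8% of all such genes.

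**Figure D5:**
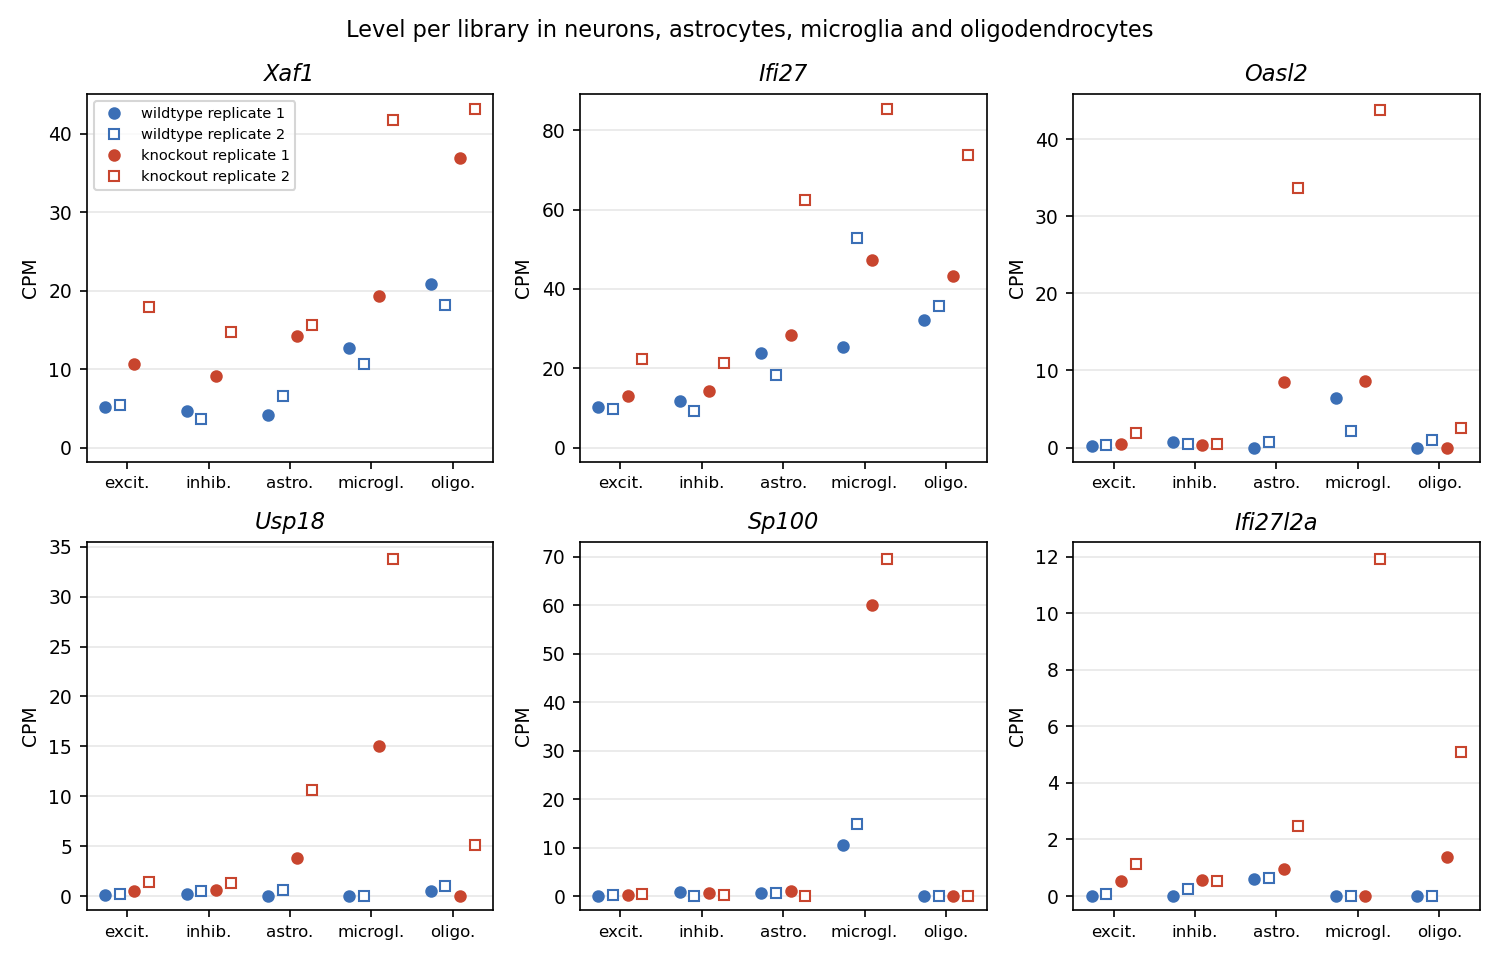
Level (y axis, CPM, with its own scale in each panel) of 6 members in excitatory neurons, inhibitory neurons, astrocytes, microglia and oligodendrocytes (x axis), with 1 point per library: blue for wildtype, red for knockout, circles for replicate 1 and squares for replicate 2. Sp100 lies far above 0 only in microglia among these 5 classes (60.0 and 69.6 CPM in knockout), Oasl2 is high in astrocytes and microglia of knockout replicate 2 (33.6 and 43.7 CPM), and Xaf1 and Ifi27 are present in all 5.

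Markers of lymphocytes moved with genotype in the microglia sums. The 6 T or NK cell markers added up to 10.6, 4.23, 51.4 and 45.7 CPM, most of it Skap1 (3, 1, 10 and 17 UMIs) and Cd247 (1, 1, 10 and 5), while the T cell genes Cd3d, Cd3e and Trac had 0, 1 and 2 UMIs in all, those of Cd3e and Trac in knockout replicate 1. Without the 5, 2, 14 and 12 microglia nuclei that held such a UMI, Sp100 had 5, 7, 25 and 34 UMIs and Usp18 0, 0, 6 and 17, and the members had 4.33, 3.85, 7.59 and 8.95 UMIs per 10000 UMIs (4.29, 3.83, 7.79 and 9.0 with them). B cell markers added up to 99.6, 84.7, 154 and 131 CPM, nearly all of it Ighm, with Cd79b and Ms4a1 at 0. Ribosomal protein transcripts were at 13825, 15531, 19089 and 21072 CPM (1 of 81 tested rose). The part of these last 2 lists in the members' results was not tested. Slc17a7, a marker of excitatory neurons that microglia should lack, stood at 386, 476, 339 and 417 CPM there. In excitatory neurons themselves it stood lower, at 240, 262, 254 and 278 CPM. It also stood at 311, 407, 296 and 382 CPM in oligodendrocytes and at 224, 306, 192 and 287 CPM in astrocytes. Endothelial nuclei had 340, 600, 546 and 710 CPM of it. The source of this RNA was not tested. In microglia, markers of other brain cells were lower in both knockout libraries than in both wildtype ones: 943, 984, 778 and 902 CPM for excitatory neurons, 381, 373, 242 and 246 CPM for inhibitory neurons, 799, 826, 607 and 624 CPM for oligodendrocytes and 905, 951, 797 and 755 CPM for astrocytes, none of them with a gene that passed. Their part in the members' values was not tested. Sp100 itself was scarce in the abundant classes: oligodendrocytes had 0 UMIs in all 4 libraries, which allows up to 1.53, 1.55, 2.05 and 2.54 CPM, and excitatory neurons 0.102, 0.281, 0.233 and 0.356 CPM.

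In oligodendrocytes, the myelinating glia, Xaf1 rose. It had 20.9, 18.1, 37.0 and 43.2 CPM, with no overlap (1.03 ± 0.230, adjusted p = 0.0357), and was the only one of 6 members tested that rose (0.504% of all genes rose, 0.512% fell). That call was lost without wildtype replicate 1 (adjusted p = 0.0685), without wildtype replicate 2 (0.114) and without knockout replicate 2 (0.0953). Ifi27 had 32.1, 35.8, 43.1 and 73.6 CPM (0.76 ± 0.230, adjusted p = 0.118), Ifit2 3.57, 4.15, 6.16 and 6.77 CPM (adjusted p = 0.585) and Parp12 5.60, 5.70, 6.16 and 10.2 CPM (adjusted p = 0.705). Ifi27 (27.7%) and Xaf1 (23.3%) led the summed difference of 88.2 CPM, and Stat2 overlapped between the genotypes (29.5, 29.5, 27.4 and 36.4 CPM). In the same sums ribosomal protein transcripts stood at 11306, 12638, 15322 and 17656 CPM (5 of 81 tested rose), microglia markers at 183, 197, 212 and 256 CPM (none of 9 rose), endothelial markers at 15.3, 18.1, 24 and 27.1 CPM (none of 2 rose) and astrocyte markers at 698, 745, 530 and 530 CPM (1 of 8 fell). The part of these lists in the rise of Xaf1 was not tested.

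In oligodendrocyte precursors, none of the 7 members tested passed (0.022% of all genes rose, 0.0% fell). At an unadjusted p under 0.05, a threshold at which all genes were not counted, 3 of them were higher in this class. Ddx60 had 3, 4, 13 and 17 UMIs there (log2 fold change 2.17, adjusted p = 0.569), Ifi27 38.4, 46.0, 66.4 and 92.9 CPM (0.92) and Xaf1 6.98, 3.41, 17.6 and 23.2 CPM (1.94). Each of the 3 was higher in both knockout libraries, as were 18% of all genes with at least 20 UMIs in this class. Ddx60 and Xaf1 met the low-count filter here only through the knockout libraries. No member could be tested in endothelial nuclei, where Sp100 had 5, 2, 8 and 11 UMIs. There Ifih1, the RNA sensor MDA5, had 1, 1, 4 and 6, and Parp9 0, 0, 2 and 5 (at least 2.18-fold higher). In CPM the 2 knockout libraries were the highest for these 3, which were picked from 35 members with a UMI. Of the 2 members with at least 20 UMIs there, 1 had that order, against 21.1% of all such genes. The genotypes overlapped for Oasl2 (2, 4, 2 and 12 UMIs), Xaf1 (3, 0, 5 and 2) and Usp18 (1, 1, 3 and 1). Markers of mural cells added up to 510, 320, 1597 and 2277 CPM in these endothelial sums, fibroblast markers to 0, 40.0, 126 and 269 CPM and ribosomal protein transcripts to 19400, 22185, 27351 and 31101 CPM, and their part in the members' values was not tested. In fibroblasts none of the 3 members tested rose or fell (0.0% of all genes). Of 13 members with at least 20 UMIs there, 5 had a positive log2 ratio, against 47.7% of all such genes.

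The members' counts can be read beside those of all genes of the same class, as a description with no test. For genes with at least 20 UMIs over the 4 libraries of a class, which a gene can reach through the knockout libraries alone, the number with both knockout above both wildtype libraries was 14 of 34 members in excitatory neurons (26.1% of all such genes), 9 of 18 in inhibitory neurons (22.3%), 11 of 17 in astrocytes (20.3%), 12 of 18 in microglia (21.3%) and 7 of 11 in oligodendrocytes (21.6%). The reverse order was seen in 3 members in excitatory neurons, 1 in inhibitory neurons, 0 in astrocytes, 1 in microglia and 1 in oligodendrocytes (25.5%, 21.5%, 18.9%, 19% and 20.9% of all genes). The median log2 fold change of these members was 0.33, 0.36, 0.55, 0.88 and 0.53 in the same order of classes, and that of all such genes lay between -0.03 and 0.00. Knockout replicate 2 exceeded knockout replicate 1 in 25 of the 34 members in excitatory neurons, 11 of 17 in astrocytes, 10 of 11 in oligodendrocytes, 11 of 18 in inhibitory neurons and 8 of 18 in microglia. Wildtype replicate 2 exceeded wildtype replicate 1 in 21 of 34, 8 of 17, 6 of 11, 4 of 18 and 5 of 18. Members are not independent of each other, since 19 of the 39 lie in 8 loci that hold 2 or more of them within 100 kb, and Ifit3 and Ifit3b are near-identical paralogues between which reads may be split.

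By role, the difference between genotypes was uneven, with no test made of these sums. The IFIT family of RNA-binding proteins (4 genes) summed to 5.63, 6.07, 5.78 and 8.86 CPM in excitatory neurons and to 4.76, 9.78, 15.1 and 24.6 CPM in astrocytes, and in microglia it hardly appeared outside knockout replicate 2 (4.24, 0, 4.29 and 21.9 CPM). The OAS family (5 genes, makers of the second messenger of RNase L and their relatives) was highest in knockout replicate 2 in excitatory neurons, astrocytes and microglia. It stood at 1.88, 2.42, 2.95 and 5.30 CPM in excitatory neurons and 8.48, 6.35, 19.3 and 77.5 CPM in microglia. In astrocytes it stood at 2.98, 1.96, 10.4 and 37.7 CPM, mostly Oasl2 in the knockout libraries but not in wildtype. The Isg15 system (3 genes) was slightly lower in knockout in excitatory neurons (30.6, 32.7, 30.2 and 30.5 CPM), where Herc6 makes up most of it, and stood at 31.8, 27.5, 70.7 and 89.4 CPM in microglia. The summed level of the transcription factors Irf7, Irf9 and Stat2 was higher in both knockout libraries in excitatory neurons (39.7, 36.0, 46.3 and 50.5 CPM), astrocytes (39.3, 41.7, 59.5 and 68.1 CPM) and microglia (33.9, 38.1, 87.9 and 77.5 CPM), although none of the 3 passed the test in any class. Irf7 was scarce in astrocytes (5, 1, 0 and 2 UMIs), and Irf9 was lowest in the 2 knockout libraries in inhibitory neurons (6.43, 6.97, 5.82 and 4.90 CPM).

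The 6 sensors of RNA and DNA and their relatives (Ifih1, Ddx58, Dhx58, Ddx60, Zbp1 and the RNA-activated kinase Eif2ak2) differed little in excitatory neurons (11, 11.2, 11.3 and 13.5 CPM) and stood at 40.5, 47.6, 69.9 and 60.7 CPM in astrocytes and 93.2, 76.2, 165 and 117 CPM in microglia. PARP and nuclear body genes (6 genes) were at 180, 142, 298 and 316 CPM in microglia, the role with the highest level there, but overlapped between genotypes in astrocytes (29.2, 23.5, 26.4 and 36.1 CPM). The 2 GTPases with a row, Gbp2 and Gbp3, were all but absent, at 10.7 CPM at most in the 5 large classes, reached by Gbp3 and Gbp2 together in astrocytes of knockout replicate 2. The 10 other effectors stood at 21, 22.4, 29.8 and 49.5 CPM in excitatory neurons, the class in which 2 of them passed the test. Rsad2, known as viperin, stayed low there (0.102, 0.386, 0.349 and 0.791 CPM, overlapping), and Ifi44 was seen in 1 library only (0, 0, 0 and 10 UMIs).

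Whether the effect of genotype on a member differed between classes was tested directly, and no member passed. Between excitatory and inhibitory neurons, 29 members were tested (smallest adjusted p = 0.489), and 0.728% of all genes passed. Between excitatory neurons and astrocytes 31 members were tested (0.568), and 0.12% of all genes passed. For excitatory neurons and microglia it was 34 members (0.52, 0.16% of all genes passed), and for astrocytes and microglia 18 (0.647, 0.0671%). An unadjusted p under 0.05 was seen for 1, 6, 5 and 3 members in that order. The share of all genes at that unadjusted threshold was not counted. The difference for Oasl2 between excitatory neurons and astrocytes was -3.82 ± 1.23 on the log2 scale (adjusted p = 0.568). For Ddx60 between astrocytes and microglia it was 2.07 ± 0.753 (adjusted p = 0.647) and for Sp100 between excitatory neurons and microglia -1.72 ± 0.992 (adjusted p = 0.962). A member that passed in 1 class and not in another is therefore not shown to differ between them. Without knockout replicate 1, 1 member, Samd9l, passed between excitatory neurons and astrocytes.

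At the level of nuclei, more microglia of knockout animals held a member transcript. After every nucleus was thinned to 1000 UMIs, which left 166, 141, 166 and 111 microglia, 28.9%, 25.5%, 50% and 50.5% held at least 1 UMI of a member. Before thinning the shares were 32.9%, 25.7%, 45.9% and 44.8% at median depths of 858, 822, 882 and 759.5 UMIs. The exact 95% intervals after thinning were 22.2% to 36.4%, 18.6% to 33.6%, 42.2% to 57.8% and 40.8% to 60.1%, which cover counting error only. In astrocytes the thinned shares were 19.2%, 20.6%, 25% and 32%, in oligodendrocytes 11.9%, 13.9%, 14.5% and 24.6%, in excitatory neurons 11.7%, 11.9%, 12.8% and 16.3%, and in inhibitory neurons 11.3%, 7.84%, 10.7% and 13.6%. Excitatory neurons of knockout replicate 1 thus differed little from wildtype. Nuclei with at least 2 different members before thinning made up 4.88%, 5.17%, 13.9% and 15.1% of microglia and 4.67%, 3.03%, 8.53% and 11% of astrocytes. Sp100 had a UMI in 5 of 553, 7 of 580, 28 of 527 and 32 of 654 microglia (0.904%, 1.21%, 5.31% and 4.89%).

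The rest of the interferon pathway was read from 4 lists of 103 genes. None of the 19 interferon ligands could be tested in any class. Ifnk, itself a type I gene, had 19 UMIs and Ifng 1 over all classes and libraries. The type I genes Ifnb1 and Ifna1 to Ifnab had 0. Among 18 receptor and JAK-STAT genes, 1 rose in excitatory neurons (17 tested) and in oligodendrocytes (12 tested), Ifnar2, and none fell. Ifnar2 is 1 of the 2 chains of the type I receptor. It had 15.8, 16.3, 41.9 and 56.6 CPM in excitatory neurons (1.62 ± 0.149, adjusted p = 0.000488) and 19.4, 20.2, 36.3 and 58.4 CPM in oligodendrocytes (1.23 ± 0.248, adjusted p = 0.0257). In both classes the 2 knockout libraries were far above wildtype, but the oligodendrocyte call was lost without knockout replicate 2 (adjusted p = 0.132). None of 21 genes of nucleic acid sensing upstream of interferon (18 tested in excitatory neurons, 13 in astrocytes, 14 in microglia) rose or fell, nor did any of 44 other interferon-stimulated genes with a row (19, 9 and 13 tested). Of these, Nlrc5, an activator of antigen presentation genes, had 2, 0, 14 and 17 UMIs in microglia (3.76 ± 0.744, adjusted p = 0.0679). In astrocytes the smallest p among the 4 lists belonged to Ifnar2 (32.7, 22.2, 46.3 and 56.6 CPM, adjusted p = 0.277) and Trim30d, a relative of Trim30a (2, 5, 8 and 12 UMIs, adjusted p = 0.347).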

How the data were processed

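Nuclei of 4 cortex libraries were measured by single-nucleus RNA-seq. The matrices the authors deposited hold whole UMI counts for each gene in each barcode, not normalized. The submitters' processing notes name Cell Ranger 7.1.0 and mm10. Whether introns or strand were used in counting is not given in the sources used here. Libraries held 14493, 14365, 11790 and 13902 barcodes and 38314394 to 45605971 UMIs.

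Nuclei below 500 UMIs or 300 genes, or above 5% mitochondrial UMIs, were dropped, and Scrublet doublets (4.14% to 5.11%) were removed. Clustering (scanpy 1.11.5, Python 3.11.15; 2000 variable genes, 30 components, 15 neighbours, Leiden resolution 1.0, no integration) gave 33 clusters, named from marker lists; 7 stayed unnamed. Leaving the members out kept 99.671% of nuclei in their class.

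Sums of counts over the nuclei of a class, with n = 2 animals per genotype, were tested with edgeR 4.0.16 (R 4.3.3): filterByExpr (minimum count 10), TMM factors, quasi-likelihood test by genotype, Benjamini-Hochberg adjustment over all genes tested in the class, threshold 0.05. A gene can pass filterByExpr through the knockout libraries alone. Standard errors were obtained by dividing the size of the log2 fold change by the root of the F statistic. Differences between classes are genotype by class terms beside a library term. Alternatives were no filter, RLE factors, DESeq2 1.42.0, limma-voom (limma 3.58.1), the replicate number as a block, leaving out each library, nuclei of at least 1000 UMIs, and clustering without the members. The edgeR script was tested on simulated counts, where the share of false calls exceeded the threshold in each of the 5 large classes except microglia. Floors are 3 UMIs over a group, and intervals are exact 95% intervals that cover counting error only.

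The members and lists were chosen with earlier results of these data known. Values are given for members that passed in any class, for the 4 with the smallest p in the 5 large classes and for the 3 with the highest wildtype CPM in microglia and excitatory neurons. The descriptions of genes with at least 20 UMIs, of scarce members, of neighbours and of nuclei with lymphocyte UMIs were chosen after seeing the data. Positions are from GENCODE vM21 and promoters from RefSeq (GRCm38.p6), where 30 of the 39 members have one. The values of 1 gene of the pathway lists are not reported here.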

Additional observations from a re-analysis of the deposited data

Results flagged for a closer look

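In the tests between classes no member passed. In the interferon pathway, the difference of the genotype effect on Ifnar2, a chain of the type I interferon receptor, passed the test between classes. The rise in excitatory neurons exceeded that in inhibitory neurons by 0.850 ± 0.169 on the log2 scale (adjusted p = 0.00671 by edgeR's quasi-likelihood test) and that in microglia by 1.29 ± 0.220 (adjusted p = 1.31e-05). Against astrocytes it was 0.75 ± 0.243 (adjusted p = 0.579). Ifnar2 had 15.8, 22.1, 28.3 and 37.9 CPM in inhibitory neurons and 121, 119, 144 and 161 CPM in microglia (wildtype replicates 1 and 2, knockout replicates 1 and 2), so the level of microglia was the higher in both genotypes.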

How the results depend on the processing

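Of 224 refits of 22 results on single genes, 181 kept their direction and side of the threshold, 20 lost the threshold, 23 gained it and 0 changed sign. Calls of members (2 in excitatory neurons, 1 each in inhibitory neurons, astrocytes, microglia and oligodendrocytes) depended on the setting. Without the low-count filter they were 0, 1, 5, 0 and 0 in that order of classes, with DESeq2 3, 0, 1, 0 and 0, with limma-voom 2, 0, 0, 0 and 1, and with nuclei of at least 1000 UMIs 2, 1, 0, 0 and 0. Leaving out 1 library gave 2 to 8, 0 to 2, 0 to 3, 0 to 1 and 0 to 3. The cause was not tested. RLE factors and clustering without the members left each of these counts as it was, and the ratio of the summed level kept its direction in all settings run. Sp100 in microglia had an adjusted p of 0.789 without the filter, 0.245 with DESeq2 and 0.0968 with limma-voom. Oasl2 in astrocytes had 0.134 with limma-voom and 0.111 with nuclei of at least 1000 UMIs. Xaf1 in excitatory neurons had 0.0796 and Ifi27l2a 0.0972 without the filter. Xaf1 in inhibitory neurons had 0.242 with DESeq2 and 0.062 with limma-voom, and in oligodendrocytes 0.103 without the filter and 0.188 with nuclei of at least 1000 UMIs.

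All genes called (861, 148, 36, 10 and 125) became 285 in excitatory neurons, 187 in astrocytes, 0 in microglia and 32 in oligodendrocytes without the filter, 83 in inhibitory neurons, 1 in microglia and 48 in oligodendrocytes with DESeq2, and 17 in microglia with RLE factors and with limma-voom. With nuclei of at least 1000 UMIs they were 22 in astrocytes, 0 in microglia and 18 in oligodendrocytes. Leaving out 1 library gave 817 to 2623, 140 to 736, 50 to 322, 0 to 47 and 68 to 382. Pathway genes called (1, 0, 0, 0 and 1) became 2 in excitatory neurons with DESeq2, 1 in microglia with RLE factors, and 0 in oligodendrocytes without the filter and with DESeq2, and ranged over 1 to 8, 0 to 1, 0 to 2, 0 to 1 and 0 to 2 with 1 library left out. Member calls between excitatory neurons and astrocytes (0) ranged over 0 to 1 and subclass calls (8) over 2 to 20.

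The labels do not say that replicate numbers pair animals, and deviations of same-numbered libraries correlated at 0.0453 to 0.358 over genes of the 10 classes, with 2 pairs only. By their RNA, replicate 1 of each genotype was male and replicate 2 female, so the replicate number also stands for sex. With the replicate number as a block, which leaves 1 residual degree of freedom per gene, member calls were 8, 2, 4, 5 and 2, all genes 3616, 1116, 419, 297 and 565, pathway genes 8 in excitatory neurons, 1 in inhibitory neurons and 2 each in astrocytes and microglia, and subclass calls 14. In microglia the block gave adjusted p = 0.0124 for Trim30a, 0.0216 for Parp9 and 0.0348 for Stat2.

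Depth limits the members: in microglia, 489006 to 542242 UMIs per library left 26 of 39 members untested.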
